A study of Saccharomyces cerevisiae Sigma1278b with 62 samples.

Results

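The genes described here are the 32 nuclear genes of Saccharomyces cerevisiae that are listed as small-subunit (SSU) proteins of the mitochondrial ribosome. They were taken by their ORF identifiers from 5563 ORFs in 4 count tables, and no measured value was used to choose them. The list holds 19 homologs of bacterial small-subunit proteins, 12 proteins that the bacterial subunit lacks, and KGD4 (YFR049W, also YMR31), which was once listed as a ribosomal protein and is a subunit of the α-ketoglutarate dehydrogenase complex. All 32 passed the filter on low counts in every comparison.

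Mitochondrial ribosomes translate the few mRNAs of the mitochondrial genome, most of which encode subunits of the respiratory chain and of ATP synthase. Their proteins are encoded in the nucleus, translated by cytosolic ribosomes and imported, and the small subunit assembles them on the 15S rRNA to hold the mRNA and decode it. Yeast needs this machinery to respire glycerol and can do without it while it ferments glucose.

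The study asked how loss of Asc1, the yeast RACK1 protein on the head of the cytosolic 40S subunit, changes the translation of particular mRNAs. Ribosome footprints (FP) and total RNA were sequenced from the same extracts, and translation efficiency (TE) is the FP level of a gene over its total RNA level. A change in TE between strains is written ∆TE and given as a log2 ratio. There were 56 libraries, 2 of each kind for every strain in an experiment.

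All strains were of the Sigma1278b background and grown at 30 °C to mid log phase in YPAD (2% glucose) unless glycerol is named. The asc1-M1X allele turns the ASC1 start codon into a stop codon and keeps the intronic snoRNA snR24, whereas asc1Δ lacks the gene with snR24. By the study's account, the Asc1 proteins of asc1-D109Y and asc1-DE (R38D K40E) sediment less with ribosomes in sucrose gradients. After crosslinking in cells both were found with polysomes, and the study takes their binding in cells as likely closer to that of WT. The strains rpl23bΔ and rpp1aΔ lack one copy of a 60S protein and a protein of the ribosomal stalk, and rps0bΔ and rps16bΔ, from the Sigma1278b deletion collection, lack one copy of a 40S protein. The asc1-DE and the collection strains each had a WT of their own, and WT and asc1-M1X were also profiled in YPAG (3% glycerol). By the study's account these cultures came from glucose and were taken within hours of the transfer, before fast growth resumed in WT, while the labels describe growth to mid log phase in that medium, so values in glycerol cannot be taken as those of steady growth. The 2 replicates were 2 isolates in rpl23bΔ, rpp1aΔ, asc1-D109Y and both null strains, while both WT replicates, and both replicates of asc1-DE and of each collection strain, carried one strain code. Total RNA was selected with oligo(dT), and WT and asc1-M1X total RNA of the glucose experiment was also prepared with Ribo-Zero, which removes rRNA and does not select poly(A).

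Libraries held 1713047 to 15322986 counted reads, of which 3328 to 104765 fell on the 32 genes. ASC1 had 30475 and 33792 FP reads in WT, 249 and 179 in the asc1-M1X strain, and 165 and 66 in the deletion, while its total RNA reads numbered 15435 and 14152 in the former and 61 and 145 in the latter. A simulation was made for asc1-M1X against WT in glucose, with 2 replicates per strain. There a ∆TE of 1 was called in 97.5% of genes and one of 0.5 in 57.5%, so many smaller changes would be missed. Other comparisons were not simulated, and the SE of ∆TE could be larger in them, as for MRPS35 with 0.27 in glycerol and 0.12 in glucose. These SE come from a fit that does not pair FP and total RNA of one extract. In the fit with the culture as a replicate block, described below, they were 0.14 and 0.11. The p-values rest on 2 cultures per strain, with the spread pooled over the libraries of a fit and shared in part across genes.

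In WT cells of the main glucose experiment the SSU genes were translated at uneven levels. Levels are given as RPM, the reads of a gene scaled to a common library total. FP RPM per kb of ORF ran from 22.8 for EHD3 (a hydroxyisobutyryl-CoA hydrolase also found on the small subunit as mS47) to 229.5 for RSM18 (bS18m), a 10.1-fold range with a median of 81.2. Total RNA per kb ran from 25.5 for EHD3 to 239 for MRPS12 (uS12m, a protein of the decoding centre in its bacterial homolog), a 9.38-fold range. Placed in order of FP per kb, 21 of 31 neighbouring pairs of genes overlapped in their 2 WT values, and by total RNA 24 of 31 did, so the order is loose. TE in this experiment was less spread, from 0.564 ± 0.019 (SD, n = 2) for MRP4 (uS2m) to 1.92 ± 0.12 for RSM18, a 3.40-fold range. These extremes did not hold in the other WT cultures in glucose. In the WT of asc1-DE, TE was 1.201 and 1.337 for MRP4 and 1.139 and 0.9922 for RSM18. In the collection WT, MRP4 had FP of 55.44 and 61.66 RPM and total RNA of 44.07 and 38.24. RSM18 there had FP of 96.87 and 112.9 and total RNA of 164.9 and 152.6.

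Loss of Asc1 in glucose lowered the footprints of most SSU genes. In asc1-M1X against WT, FP of 28 of 32 genes was lower, with a median log2 change of -0.30 against 0.00 over all 4947 genes tested. FP fell past the threshold (edgeR quasi-likelihood test, Benjamini-Hochberg adjusted p under 0.05) in 18 of 32 genes and rose in 0, where 51.9% of all genes were called and 25.3% were called as falling. The largest falls were in MRPS9 (uS9m), MRP13 (mS44), MRP2 (uS14m), MRPS35 (mS45) and RSM19 (uS19m, a protein of the subunit head), with log2 changes of -0.64, -0.62, -0.60, -0.59 and -0.59. Total RNA moved less, with a median of -0.09, and it fell in 8 genes and rose in 1 (40.2% of all genes were called, 19.9% falling and 20.4% rising).

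**Figure D1:**
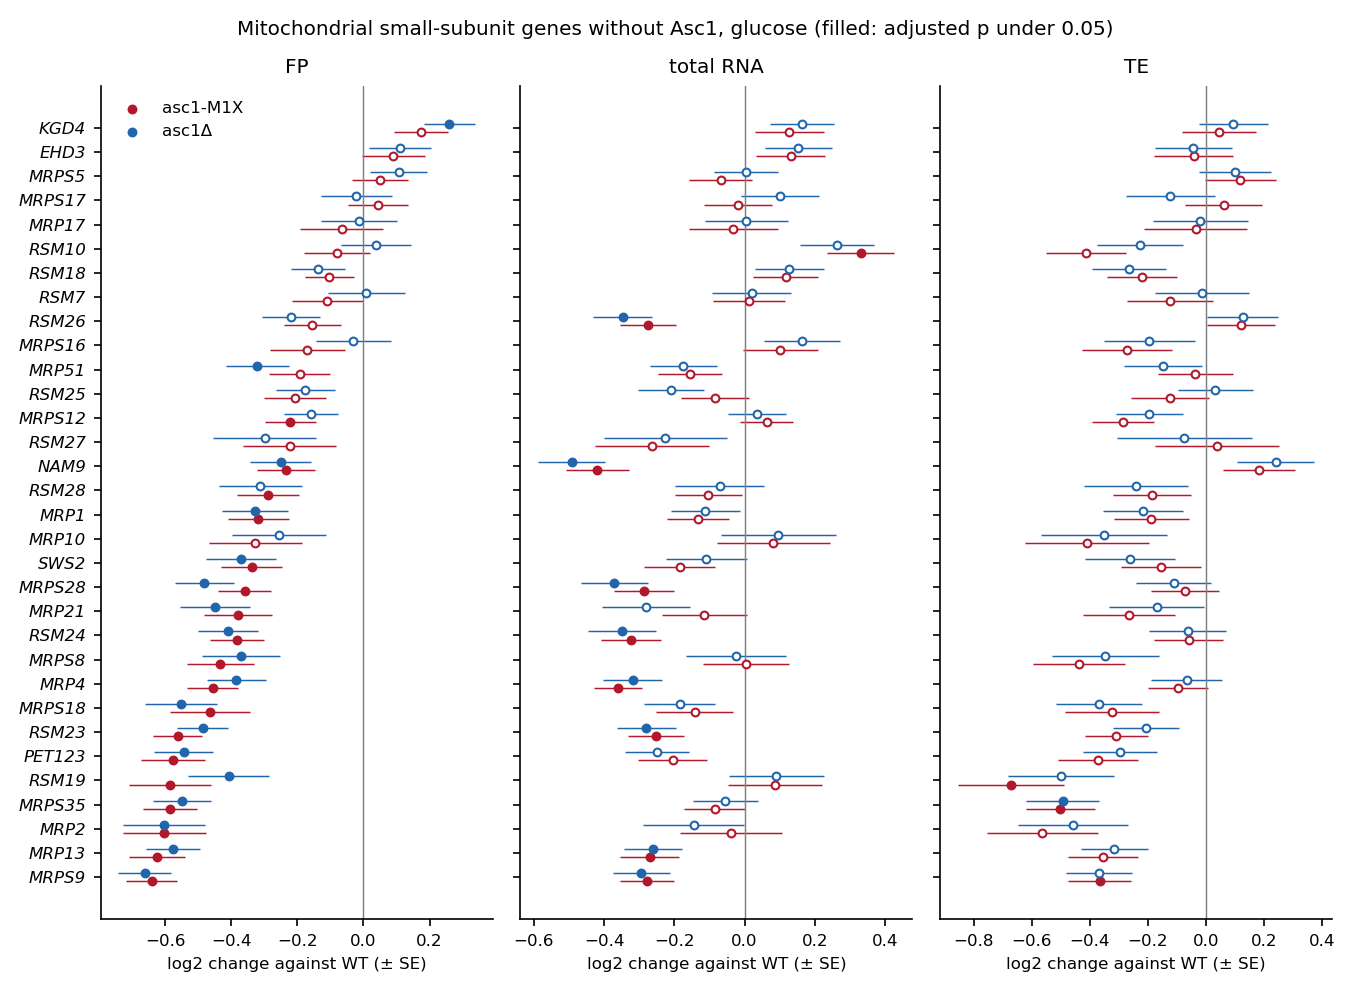
Log2 change against WT (± SE) of FP, total RNA and TE in glucose, one row per gene, for asc1-M1X (red) and asc1Δ (blue), with filled points for an adjusted p under 0.05. FP lies left of zero for 28 of 32 genes (red) and for 27 (blue), while total RNA lies closer to zero.

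MRPS35 (YGR165W), a protein of the mitochondrial subunit that bacteria lack, had FP levels of 67.5 and 73.1 RPM in WT and of 47.0 and 46.2 in asc1-M1X. Its total RNA was 53.2 and 59.6 in WT and 53.8 and 52.9 in asc1-M1X. The FP values of the strains were apart and the total RNA values overlapped. Its TE was 1.27 and 1.23 in WT, 0.873 in both asc1-M1X cultures, and 0.935 and 0.826 where ASC1 was deleted, so that each null value lay below both WT values. In asc1-M1X ∆TE was -0.50 (SE 0.12; edgeR, adjusted p = 0.0102). Over Ribo-Zero total RNA, with the same FP libraries, its TE was 1.18 and 1.11 in WT and 1.09 and 1.195 in asc1-M1X, which overlapped, and ∆TE was -0.02 (SE 0.15; edgeR, adjusted p = 0.954).

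MRPS9 (YBR146W) had FP levels of 72.8 and 73.4 in WT and of 45.3 and 47.8 in asc1-M1X, a fall of 35.9%. Its total RNA was 79.5 and 80.0 in WT and 62.8 and 68.9 in asc1-M1X, so FP and total RNA both fell and FP fell further. TE was 0.916 and 0.917 in WT and 0.722 and 0.694 in asc1-M1X, with no overlap, and ∆TE was -0.37 (SE 0.11; edgeR, adjusted p = 0.0307).

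RSM19 (YNR037C), the shortest of these ORFs at 276 nt in the reference genome R64, had FP levels of 30.1 and 25.8 in WT and of 18.8 and 18.1 in asc1-M1X. Its total RNA was 19.6 and 22.7 in WT and 21.5 and 23.7 in asc1-M1X, where the ranges overlapped. TE was 1.53 and 1.14 in WT, so the WT replicates differed, and it was 0.873 and 0.763 in asc1-M1X, below both. ∆TE was -0.67 (SE 0.18; edgeR, adjusted p = 0.021).

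MRP2 (YPR166C), a head protein whose bacterial homolog binds 16S rRNA, came close to the threshold. Its FP was 46.6 and 53.2 in WT and 34.3 and 31.1 in asc1-M1X. Its total RNA was 25.8 and 35.4 in WT, a wide spread, and 28.0 and 32.5 in asc1-M1X, which lay inside it. TE was 1.805 and 1.504 in WT and 1.23 and 0.959 in asc1-M1X, with no overlap, and ∆TE was -0.56 (SE 0.19; edgeR, adjusted p = 0.0526).

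**Figure D2:**
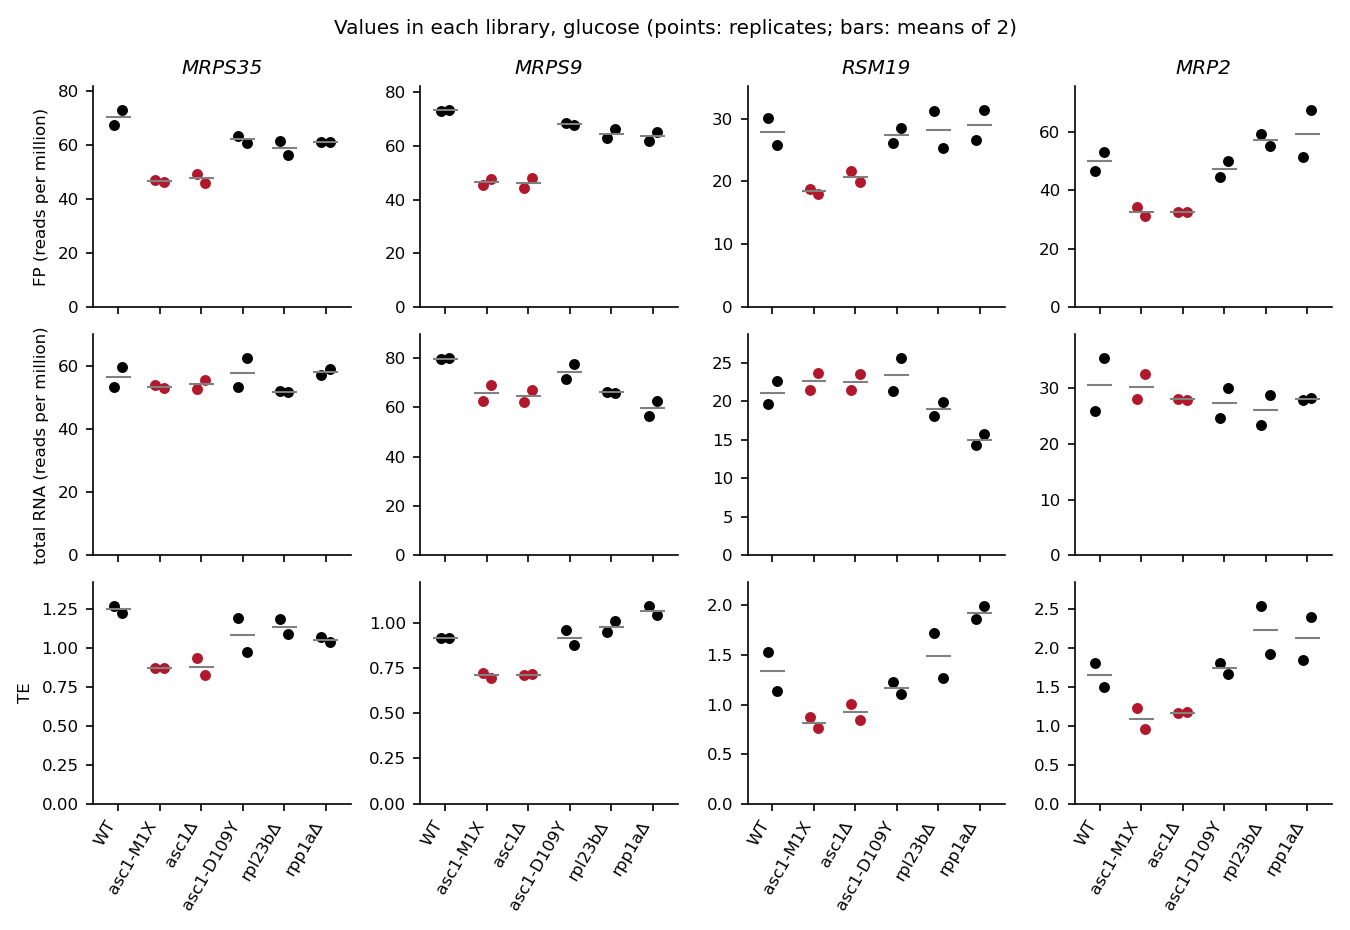
FP and total RNA (RPM) and TE of MRPS35, MRPS9, RSM19 and MRP2 in the 6 strains of the main glucose experiment, with a point per replicate, a bar at the mean of 2 and the 2 null strains in red. FP and TE of both null strains lie below both WT points in all 4 genes, as in MRPS9 with TE of 0.722 and 0.694 in asc1-M1X and 0.916 and 0.917 in WT, whereas total RNA of MRPS35, RSM19 and MRP2 in asc1-M1X is close to WT.

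MRPS35, MRPS9 and RSM19 were the 3 genes with a called ∆TE in asc1-M1X, and all 3 fell. This is 9.38% of the 32 genes beside 20.2% of all genes called and 8.91% called as falling, so in this fit the share called down was near the background. The whole list lay lower than that count shows: ∆TE was below zero in 26 of 32 genes with a median of -0.19, where the median over all genes was -0.01. Over the 2878 genes of 276 to 1503 nt, the length range of the SSU genes, the median was -0.05 and 9.90% were called as falling. The median was -0.20 and -0.17 in the 2 pairs of same-numbered replicates. Unadjusted p was under 0.05 in 10 genes.

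MRPS9 lost its call whichever culture was left out, MRPS35 without either asc1-M1X culture (edgeR, adjusted p = 0.0859 and 0.11), and RSM19 without WT replicate 1 (∆TE -0.48, adjusted p = 0.154) or without either asc1-M1X culture (0.0805 and 0.209). The count was 0 without either asc1-M1X culture. It was 3 without either WT culture, where other genes gained a call, MRP2 among them without WT replicate 2 (-0.73, adjusted p = 0.0176). Since FP and total RNA of one number came from one extract, a fit with the culture as a replicate block was also made. In it ∆TE fell in 11 SSU genes and rose in 0, and 32.2% of all genes were called. Shares of all genes given for the replicate block count falls and rises together, so no falling share stands beside the 11. The 11 were MRP2 (-0.57), MRP13, MRPS8, MRPS9, MRPS12, MRPS18, MRPS35, RSM10, RSM19, RSM23 and PET123. DESeq2 called MRPS35 alone.

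Among total RNA changes in asc1-M1X, RSM10 (uS10m) rose by 0.33 on the log2 scale. Its FP did not follow, at 43.8 and 49.2 RPM in WT and 41.8 and 45.8 in asc1-M1X. The 8 genes whose total RNA fell were NAM9 (uS4m, -0.42), MRP4 (-0.36), RSM24 (mS35, -0.32), MRPS28 (uS15m, -0.29), MRPS9 (-0.28), RSM26 (mS42, -0.28), MRP13 (-0.27) and RSM23 (mS29, a GTP-binding homolog of human DAP3, -0.25). Without 1 of the cultures the total RNA calls of 9 genes numbered 3 to 6. The 16 shorter ORFs had a median total RNA change of 0.01 and the 16 longer ones -0.23, and over all genes total RNA change and ORF length were related with a Spearman rho of -0.25. The part of ORF length in these results was not tested.

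Scaling to library size alone, in place of TMM, moved the median of all genes in asc1-M1X by 0.14 in FP and by 0.11 in total RNA. Under it FP fell in 12 SSU genes and rose in 1, and total RNA fell in 2 and rose in 1. The median total RNA change of the SSU genes then turned from -0.09 to 0.01, so the direction of their total RNA as a list depends on the scaling, whereas relative to all genes it stayed at -0.10. The FP median stayed below zero at -0.16 and the TE median at -0.15.

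Homologs of bacterial proteins and mitochondria-specific proteins both had lower FP in asc1-M1X, falling in 11 of 19 and 7 of 12 and with median ∆TE of -0.22 and -0.19. KGD4, no component of the ribosome proper, had 50.4 and 51.7 FP RPM in WT and 55.3 and 59.3 in asc1-M1X, apart and upward, with a log2 change of 0.17 that missed the threshold (edgeR, adjusted p = 0.0914). EHD3, an enzyme also found on the small subunit, had a change of 0.09. The lack of a fall was not particular to these 2, since MRPS5 (0.05) and MRPS17 (0.04), homologs of bacterial ribosomal proteins, were not lower either.

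Other genes of the mitochondrial translation system give the frame. Of 44 large-subunit genes, FP fell in 31 and rose in 1 and ∆TE fell in 5, with medians of -0.42 and -0.25. Of 9 mitochondrial translation factors, FP fell in 4 and rose in 1 and ∆TE was called in 0 by edgeR (2 at an unadjusted p under 0.05). Of 14 translational activators of mitochondrial mRNAs that were tested, FP fell in 7 and ∆TE fell in 1. Among 53 genes of the cytosolic small subunit, FP fell in 51 and ∆TE in 27, with a median of -0.28.

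In asc1Δ, which was set against the same WT libraries, FP fell in 17 SSU genes and rose in KGD4 (47.7% of all genes were called), with a median of -0.32. Total RNA fell in 8 genes (35% of all), the same 8 as in asc1-M1X. ∆TE fell in MRPS35 alone (-0.49, SE 0.13; edgeR, adjusted p = 0.028), where 12% of all genes were called, 4.82% falling and 7.2% rising, and this call was lost whichever of the 4 cultures was left out (adjusted p from 0.0689 to 0.185) and in DESeq2. ∆TE was below zero in 27 of 32 genes, with a median of -0.19, and with the replicate block it fell in 6 genes (30.0% of all genes): MRP2, MRP13, MRPS9, MRPS18, MRPS35 and RSM19. Scaled to library size alone, FP fell in 11 genes and rose in 3, total RNA fell in 1 and rose in 2, and the median total RNA change went from -0.11 to 0.00.

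The TE of MRPS9 in asc1Δ was 0.708 and 0.716, below both WT values, with ∆TE of -0.37 (edgeR, adjusted p = 0.0546). That of MRP2 was 1.17 and 1.18, also below both, with ∆TE of -0.46 (adjusted p = 0.132 from edgeR). RSM19 stood at 1.01 and 0.845, again below both, with ∆TE of -0.50 (adjusted p = 0.0962 from edgeR).

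Set against each other directly, asc1-M1X and asc1Δ differed in 0 SSU genes in FP, total RNA and TE by edgeR and by DESeq2, with 0 genes at an unadjusted p under 0.05 in edgeR (0.02% of all genes were called in each readout). The differences of the 32 genes ran from -0.18 to 0.13 in FP, from -0.12 to 0.17 in total RNA and from -0.19 to 0.18 in TE.

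The asc1-D109Y and asc1-DE alleles, whose proteins still associate with ribosomes by the study's account, left the SSU genes without a called change. In asc1-D109Y, 0 genes were called by edgeR or DESeq2 in FP, total RNA or TE (of all genes 0.636% rose and 0.0411% fell in FP, 0.677% in all, 0.821% rose and 0.0821% fell in total RNA, 0.903% in all, and 0% changed in TE), with 2, 1 and 1 at an unadjusted p under 0.05, and the FP changes ran from -0.23 in MRP13 to 0.23 in KGD4. In asc1-DE, prepared with poly(A) tailing and set against a WT of its own, with shallower total RNA libraries, 0 genes were called by either tool in any readout (0% of all genes) and 0 had an unadjusted p under 0.05. The FP changes there ran from -0.22 to 0.24. ∆TE there ran from -0.37 (MRP4, SE 0.19) to 0.46 (MRPS8, SE 0.21). In asc1-D109Y ∆TE ran from -0.32 (MRPS8, SE 0.15) to 0.29 (RSM25, SE 0.13). The lack of a call therefore does not show that TE was unchanged.

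The genes with a called ∆TE in the null strains, and MRP2, had these TE values in the other alleles. In asc1-D109Y TE was 1.19 and 0.975 for MRPS35, below both WT values of the main experiment. It was 0.957 and 0.874 for MRPS9, 1.23 and 1.11 for RSM19 and 1.81 and 1.66 for MRP2, all overlapping WT. In asc1-DE and its WT the MRPS35 values were 0.714 and 0.646 against 0.774 and 0.615, and the MRPS9 values 1.10 and 1.24 against 1.165 and 1.57, both overlapping. RSM19 stood at 0.528 and 0.519 against 0.620 and 0.664, apart and lower, and MRP2 at 1.05 and 0.989 against 0.628 and 1.03, overlapping.

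The null and the D109Y allele were also compared directly. In asc1-M1X against asc1-D109Y, FP fell in 17 SSU genes and rose in EHD3 (0.27), with 48.7% of all genes called. ∆TE fell in 5 genes, namely MRP2 (-0.64), MRPS18 (uS11m, -0.47), RSM25 (mS23, -0.41), MRPS9 (-0.35) and MRPS12 (-0.33), with 16.8% of all genes called. That share, which counts both directions, was near the share of SSU genes called. ∆TE fell in 0 to 2 without 1 culture, in 1 by DESeq2 and in 9 with the replicate block (28.4% of all genes). Total RNA fell in 6 genes and rose in RSM10 (37% of all genes), and scaled to library size alone it fell in 1 and rose in 6 and FP fell in 11 and rose in 2, with the all-gene median of each moved by 0.12.

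**Figure D3:**
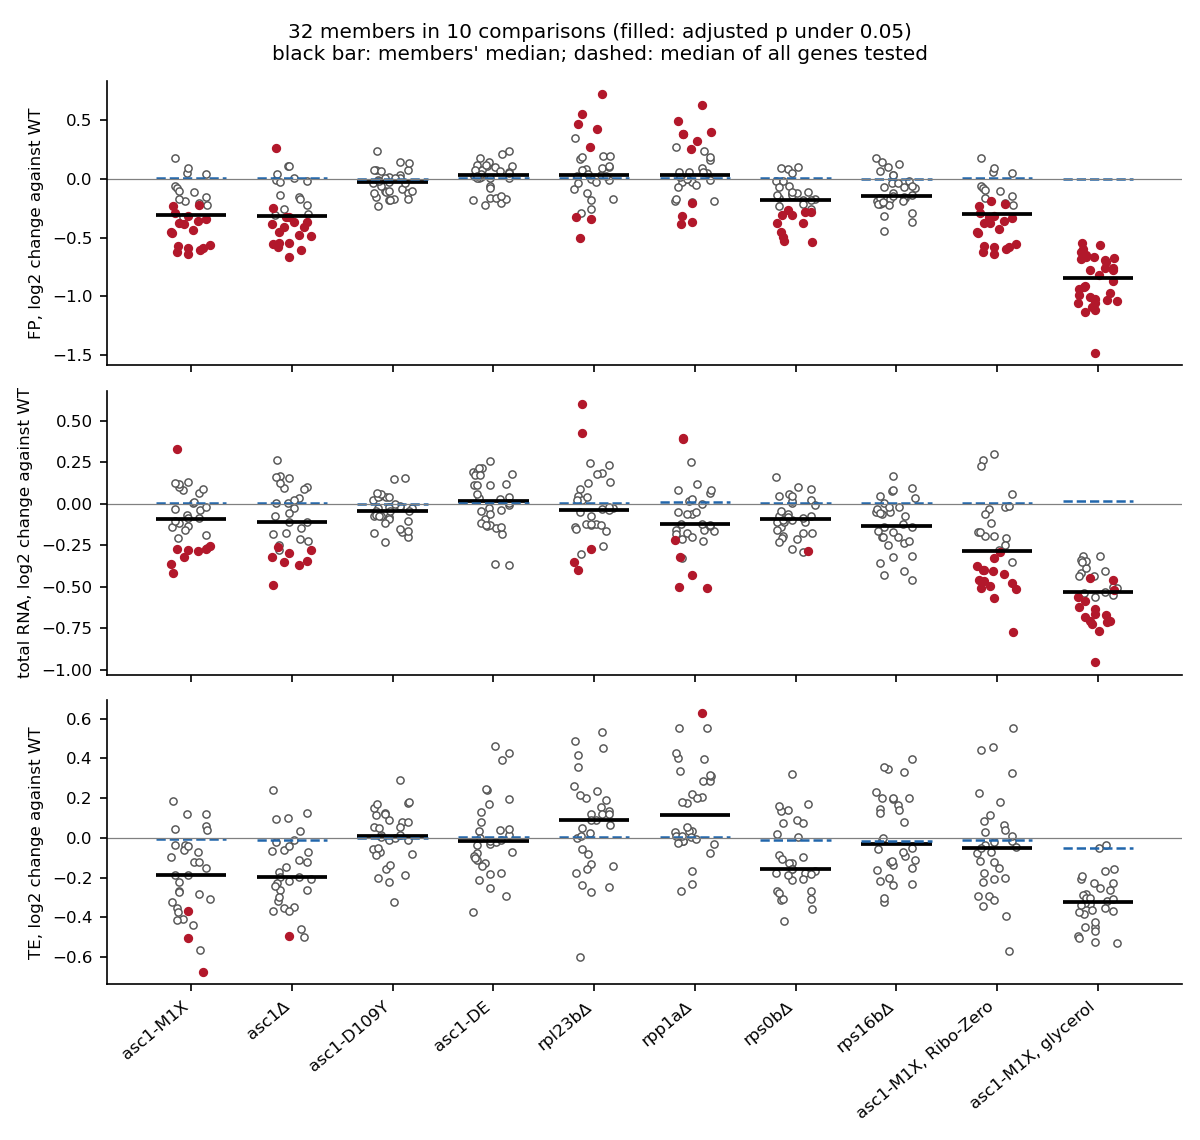
Log2 change against the matched WT of FP, total RNA and TE of the 32 genes (members) in 10 comparisons, one point per gene, filled for an adjusted p under 0.05, with a black bar at their median and a dashed line at the median of all genes tested. In FP the median is -0.30 for asc1-M1X, -0.32 for asc1Δ, -0.03 for asc1-D109Y, 0.03 for asc1-DE and -0.84 for asc1-M1X grown in glycerol.

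The 60S mutants did not share the fall. In rpl23bΔ, FP rose in 5 SSU genes and fell in 3 (41.8% of all genes were called), and in rpp1aΔ it rose in 7 and fell in 4 (42.6%). MRPS12 showed the largest rise in both: its FP was 79.6 and 72.0 RPM in WT, 123 and 126 in rpl23bΔ, and 113 and 121 in rpp1aΔ, while its total RNA was 89.8 and 88.2, 92.6 and 109.9, and 89.3 and 89.9. FP of MRPS12 in both mutants lay above both WT values. MRPS16 (bS16m), MRP17 (bS6m), RSM7 (uS7m) and MRPS5 (uS5m) rose in FP in both strains, by 0.55, 0.46, 0.42 and 0.27 in rpl23bΔ. MRP13 and EHD3 fell in both, by 0.51 and 0.35 in rpl23bΔ, and both strains were set against the same WT libraries.

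∆TE was called in 0 SSU genes in rpl23bΔ by edgeR (4 at an unadjusted p under 0.05; DESeq2 called 0; 2.62% of all genes, 0.613% rising) and in MRPS12 alone in rpp1aΔ (0.63, SE 0.11; edgeR, adjusted p = 0.0156; 3.87% of all genes). The MRPS12 call was lost without either WT culture and without rpp1aΔ replicate 2. With the replicate block, ∆TE rose in MRPS12 (0.54) and fell in MRP13 (-0.60) in rpl23bΔ, and it rose in MRPS12, MRPS18, RSM10, RSM19 and KGD4 in rpp1aΔ (5.21% and 21.1% of all genes). Total RNA in these strains was called in 5 and 7 genes (34.7% and 31.5% of all genes), with RSM18 and MRPS16 up and KGD4, MRP4 and MRPS9 down in both. Without WT replicate 1 these counts were 0 and 2, and without WT replicate 2 they were 1 and 2.

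FP changes in the 60S mutants went with ORF length among the SSU genes. In rpl23bΔ the median was 0.17 in the 16 shorter ORFs and -0.10 in the 16 longer ones, and in rpp1aΔ it was 0.21 and -0.12. Spearman's rho with length over the 32 genes was -0.64 and -0.66, and over all genes tested it was -0.23 and -0.30, as a description without a test. Counts of FP calls in these strains were unsteady. In rpl23bΔ 4 were called without WT replicate 2 and 5 to 8 without another culture, and in rpp1aΔ 4 without WT replicate 1, 2 without WT replicate 2, 9 without rpp1aΔ replicate 1 and 5 without replicate 2. Scaled to library size alone, FP rose in 11 genes and fell in 1 in rpl23bΔ and rose in 10 and fell in 0 in rpp1aΔ, with all-gene medians moved by 0.18 and 0.16. Total RNA then rose in 5 and fell in 1 in rpl23bΔ and rose in 3 and fell in 2 in rpp1aΔ.

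Direct comparisons with these strains gave the largest differences in TE among the glucose strains. Against rpl23bΔ, asc1-M1X was lower in FP in 23 SSU genes and higher in EHD3 (55.3% of all genes were called) and lower in TE in 8 (19.9% of all), led by MRP2 (-1.02), RSM19 (-0.86) and MRPS12 (-0.82). Against rpp1aΔ it was lower in FP in 25 and higher in EHD3 (59.9% of all) and lower in TE in 11 (31.4% of all), led by RSM19 (-1.24), MRP2 (-0.97) and MRPS12 (-0.92). The shares of SSU genes lower in TE were only a little above these shares of all genes, which count both directions. The TE counts were 3 and 6 without asc1-M1X replicate 1 and 2 and 3 without asc1-M1X replicate 2, and 15 against rpl23bΔ without rpl23bΔ replicate 2. In TE MRP2 stood at 2.54 and 1.92 in rpl23bΔ, at 1.85 and 2.40 in rpp1aΔ, and at 1.23 and 0.959 in asc1-M1X, with no overlap between asc1-M1X and either 60S mutant. RSM19 stood at 1.72 and 1.265 in rpl23bΔ and at 1.86 and 1.99 in rpp1aΔ, MRPS9 at 0.947 and 1.007 and at 1.09 and 1.042, and MRPS35 at 1.18 and 1.09 and at 1.07 and 1.04, all above asc1-M1X. The MRPS35 values lay below both WT values and the MRPS9 values above both.

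Of the strains that lack one copy of a 40S protein, rps0bΔ had lower SSU footprints. FP fell in 11 genes and rose in 0 (26.7% of all genes were called), with a median of -0.18 and the largest falls in RSM27 (mS33, -0.54), MRPS16 (-0.53), MRP21 (bS21m, -0.50), MRP13 (-0.45) and MRPS28 (-0.38). RSM27 had FP levels of 37.5 and 33.4 RPM in the collection WT and of 27.5 and 21.1 in rps0bΔ, with no overlap. Total RNA fell in RSM19 alone (-0.29; 17.6% of all genes were called), and ∆TE was called in 0 genes by edgeR and by DESeq2 (7 at an unadjusted p under 0.05; median -0.16; 1.43% of all genes). The FP count was 2 and 7 without one or the other WT replicate, 10 without rps0bΔ replicate 1 and 4 without replicate 2, and the total RNA call of RSM19 was lost whichever culture was left out.

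In rps16bΔ, 0 SSU genes were called in FP, total RNA or TE by edgeR and by DESeq2, with 4, 4 and 1 at an unadjusted p under 0.05 (1.8%, 1.57% and 0.145% of all genes were called). The FP median was -0.14 and 25 of 32 genes were lower. Without rps16bΔ replicate 2, total RNA fell in 12 genes and ∆TE rose in 3.

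In the collection strains, MRPS9 FP was 95.0 and 101.2 RPM in WT, 82.5 and 74.9 in rps0bΔ, and 88.6 and 90.8 in rps16bΔ, while its total RNA was 80.5 and 69.8, 75.1 and 65.6, and 47.4 and 71.45. MRP2 FP was 49.98 and 52.6, 42.0 and 41.8, and 45.6 and 45.7, while its total RNA was 273 and 301, 276 and 255, and 256 and 288. Both genes had lower FP in each mutant than in WT, without overlap, and total RNA that overlapped WT. MRPS35 FP was 79.8 and 82.7 in WT, 76.2 and 73.5 in rps0bΔ and 70.9 and 74.9 in rps16bΔ, again apart, and its total RNA was 72.5 and 71.4, 78.2 and 70.3, and 83.6 and 68.95, overlapping. RSM19 FP was 30.1 and 33.3, 25.04 and 33.6, and 33.2 and 29.2, overlapping, and its total RNA was 211 and 232, 183 and 179, and 149 and 227, lower without overlap in rps0bΔ.

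SSU genes stood at much higher levels in glycerol than in glucose. The share of reads on the 32 genes in WT went from 0.157% and 0.168% of FP reads in glucose to 0.804% and 1.01% in glycerol, and from 0.172% and 0.181% to 1.18% and 1.41% of total RNA reads. FP was higher in glycerol in 32 of 32 genes, all called (76.9% of all genes were called), with a median log2 change of 2.20. The glycerol cultures were a separate experiment with libraries of their own, so the medium, the recent transfer and the experiment cannot be told apart.

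EHD3 rose most in FP in WT, from 32.1 and 34.2 RPM in glucose to 737 and 673 in glycerol, a log2 change of 4.37. KGD4 came next at 3.03, from 51.7 and 53.4 to 427 and 455. EHD3 is an enzyme of valine breakdown, and KGD4 is a subunit of an enzyme complex of the citric acid cycle. The other 30 genes rose by 1.70 (NAM9) to 2.73 (PET123, mS26) in FP, a narrow band.

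Total RNA changes between the WT cultures of the 2 media were far less even. RSM19 went from 19.2 and 22.3 RPM to 859 and 1024 (5.54), and MRP2 from 25.2 and 34.9 to 858 and 1152 (5.09), whereas NAM9, at 109.4 and 115 in glucose and 86.0 and 112 in glycerol, did not pass the threshold (-0.14; edgeR, adjusted p = 0.473). Total RNA rose in the other 31 genes (86.1% of all genes were called), by a median of 3.03 over the 32. TE fell in 15 genes and rose in 3 (73.9% of all genes were called), from -3.14 in RSM19 and -2.79 in MRP2 to 1.76 in MRP4 and 1.83 in NAM9. The median was -0.46 beside 0.11 over all genes, that is 0.57 below it, and it went to -0.21 when scaled to library size alone, which moved the all-gene median by 0.25 and gave 13 falling and 5 rising genes.

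**Figure D4:**
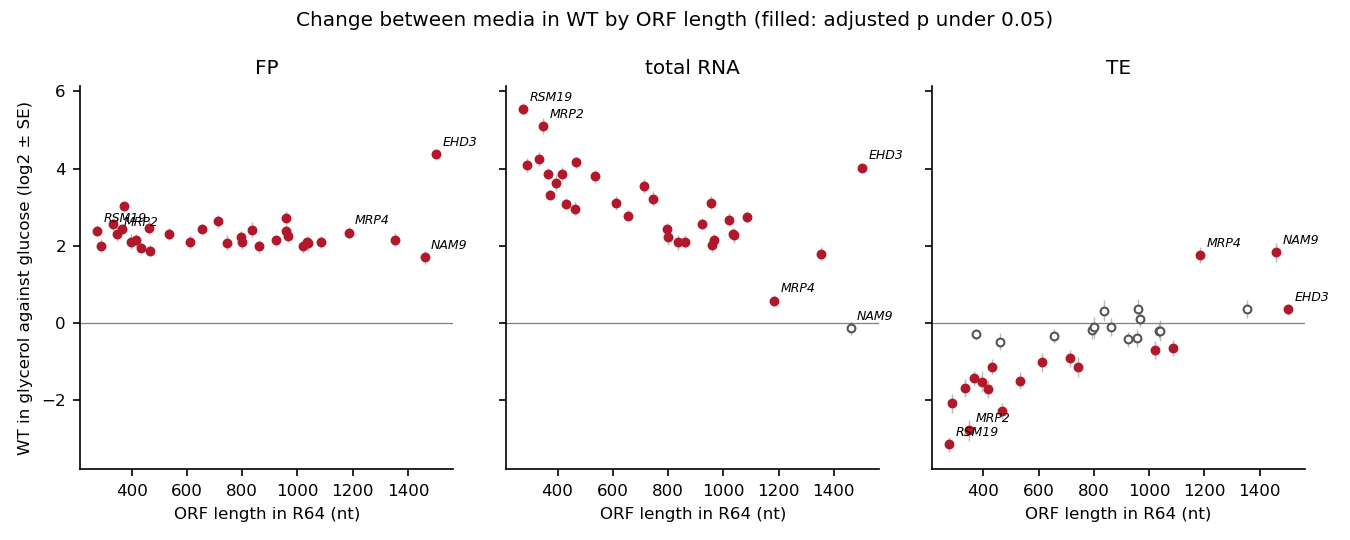
Log2 change (± SE) in WT between glycerol and glucose against ORF length in R64 (nt) for FP, total RNA and TE, one point per gene, filled for an adjusted p under 0.05. Total RNA changes are larger in short ORFs, with a median of 3.71 in the 16 shorter and 2.24 in the 16 longer ones, TE changes run the other way, and FP changes are nearly level apart from EHD3 and KGD4.

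The total RNA and TE changes between media went with ORF length. Over the 16 shorter ORFs the median was 3.71 in total RNA, -1.47 in TE and 2.30 in FP, and over the 16 longer ones it was 2.24, -0.12 and 2.15. Spearman's rho with length over the 32 genes was -0.75 for total RNA, 0.81 for TE and -0.17 for FP, and over 5091 genes it was -0.61, 0.63 and -0.15. The same direction stood between WT cultures in glucose alone. In the collection WT, RSM19 total RNA was 211 and 232 RPM against 19.6 and 22.7 in the WT of the main experiment, while its FP was 30.1 and 33.3 against 30.1 and 25.8. Over the SSU genes, total RNA of the collection WT lay above that of the main WT by a median log2 ratio of 1.88 in the 16 shorter ORFs and 0.30 in the 16 longer ones, each table scaled on its own. The part of library preparation in the WT comparison between media was not tested.

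In glycerol, asc1-M1X had lower footprints on every SSU gene. FP fell in 32 of 32 genes (40.2% of all genes were called, 21.9% falling), with a median of -0.84, from -0.55 in KGD4 to -1.48 in EHD3. EHD3 had 737 and 673 FP RPM in WT and 227 and 251 in asc1-M1X, and MRPS35 had 248 and 372 in WT and 139 and 149 in asc1-M1X, both with no overlap. FP of MRPS9 was 352.5 and 468 in WT and 178 and 194 in asc1-M1X, that of RSM19 was 142 and 167 against 67.5 and 81.4, and that of MRP2 was 229.8 and 292 against 113 and 127.5, all apart. The share of FP reads on all 32 genes was 0.804% and 1.01% in WT and 0.509% and 0.574% in asc1-M1X. Without asc1-M1X replicate 1 the count of FP calls was 16, and without any other culture it was 26 to 32.

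Total RNA in glycerol was lower in all 32 genes as well, with a median of -0.53, and fell past the threshold in 16 (22.2% of all genes were called), led by EHD3 (-0.95), MRPS8 (uS8m, -0.77), MRP51 (bS1m, -0.72) and MRP2 (-0.71). MRPS35 total RNA was 215 and 303 in WT and 178 and 172 in asc1-M1X, apart but with a wide spread in WT (-0.56; edgeR, adjusted p = 0.0605). Total RNA of MRPS9 was 256 and 393 in WT and 201 and 215 in asc1-M1X, that of RSM19 was 859 and 1024 against 575 and 572, and that of MRP2 was 858 and 1152 against 632.5 and 585.5, all apart. The count was unsteady: it was 30 without WT replicate 1, 4 without WT replicate 2, and 1 without either asc1-M1X culture.

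∆TE in glycerol was below zero in all 32 genes, with a median of -0.32 beside -0.05 over all genes, and it was called in 0 by edgeR and by DESeq2 (2 at an unadjusted p under 0.05; 0.216% of all genes were called). MRPS35 TE was 1.15 and 1.23 in WT and 0.778 and 0.867 in asc1-M1X, with no overlap. That of NAM9 was 3.27 and 3.57 in WT and 2.13 and 2.45 in asc1-M1X, again with no overlap. MRPS9 stood at 1.38 and 1.19 in WT and 0.885 and 0.903 in asc1-M1X, RSM19 at 0.1655 and 0.163 and at 0.117 and 0.142, and MRP2 at 0.268 and 0.254 and at 0.179 and 0.218, all lower without overlap. With the replicate block ∆TE fell in 8 genes (11.2% of all genes): RSM23 (-0.53), EHD3 (-0.52), NAM9 (-0.50), MRP4 (-0.49), MRPS35 (-0.46), MRP1 (mS43, -0.45), PET123 (-0.45) and MRPS9 (-0.44).

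**Figure D5:**
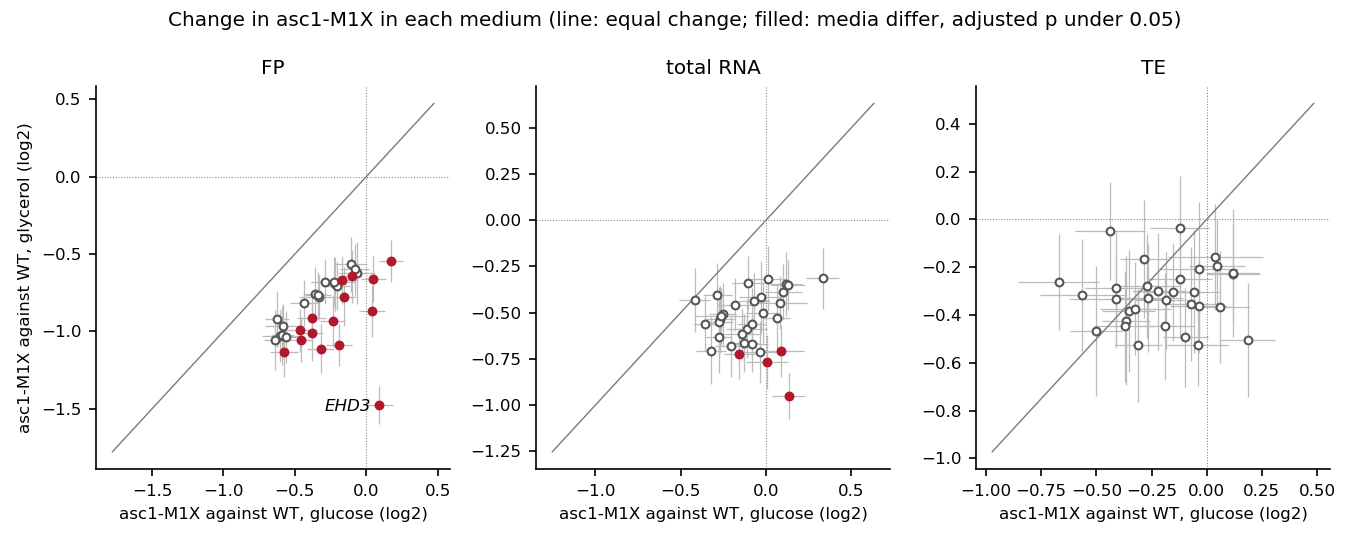
Log2 change (± SE) in asc1-M1X against WT in glycerol (vertical axis) and in glucose (horizontal axis) for FP, total RNA and TE, one point per gene, with a line at equal change and filled points where the media differed at an adjusted p under 0.05. All 32 FP points lie below the line, 15 of them filled and EHD3 farthest from it, and 0 TE points are filled.

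Whether the asc1-M1X effect differed between the media was tested as an interaction. FP fell further in glycerol in all 32 genes, by a median of 0.58 on the log2 scale where all genes fell further by a median of 0.12, and 15 genes passed the threshold (27.5% of all genes were called, 20% lower in glycerol). The largest differences were in EHD3 (-1.64), MRPS17 (uS17m, -0.99), MRP51 (-0.97), MRP1 (-0.87) and KGD4 (-0.79). EHD3 FP was 32.1 and 34.2 in WT and 33.5 and 36.5 in asc1-M1X in glucose, where the strains overlapped, and 737 and 673 against 227 and 251 in glycerol. The count of FP calls was 3 without WT replicate 1 of the glucose experiment, 5 to 7 without WT replicate 2 or either asc1-M1X culture of glucose or asc1-M1X replicate 1 of glycerol, and 32 without WT replicate 1 of glycerol.

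The interaction in total RNA was called in 4 genes, EHD3 (-1.05), RSM19 (-0.76), MRPS8 (-0.74) and MRP51 (-0.54), all lower in glycerol (15.8% of all genes). It ran from 1 to 25 genes without 1 culture, with 1 without WT replicate 1 or asc1-M1X replicate 2 of glucose and 25 without WT replicate 1 of glycerol. In TE it was called in 0 genes by edgeR and by DESeq2 (2 at an unadjusted p under 0.05; 0.711% of all genes), with a median of -0.24 beside -0.15 over all genes. With the replicate block it was called in 2 genes (8.46% of all genes), NAM9 (-0.80) and EHD3 (-0.58), both lower in glycerol.

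Of the other lists in glycerol, FP fell in 43 of 44 large-subunit genes and total RNA in 28, with medians of -0.95 and -0.58. FP fell in 7 of 8 translation factors and 10 of 14 translational activators that were tested. Among 53 cytosolic small-subunit genes FP fell in 51, with a median of -0.88.

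Ribo-Zero total RNA gave a second look at the asc1-M1X effect in glucose, with the FP libraries of the main experiment. Total RNA of 15 SSU genes fell and 0 rose (33.5% of all genes were called), with a median of -0.28, and the 8 genes that fell after oligo(dT) selection were among them. MRPS35 had 55.5 and 64.3 RPM in WT and 42.5 and 37.8 in asc1-M1X, which do not overlap, with a log2 change of -0.56 (edgeR, adjusted p = 0.000546). After oligo(dT) selection it was -0.09. RSM27 (-0.77), MRP17 (-0.51), RSM23 (-0.51) and RSM24 (-0.50) followed, and the count ran from 4 to 11 without 1 culture. Scaled to library size alone, total RNA fell in 10 genes and rose in 2.

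Against this total RNA, ∆TE was called in 0 SSU genes by edgeR and by DESeq2 (6 at an unadjusted p under 0.05; 9.34% of all genes were called), with a median of -0.05. That median turned to 0.02 when scaled to library size alone. With the replicate block the single call was a rise, in MRPS5 (0.47; edgeR, adjusted p = 0.0456; 13.1% of all genes). TE over Ribo-Zero total RNA was 1.01 and 1.04 in WT and 0.776 and 0.878 in asc1-M1X for MRPS9, 1.98 and 1.30 against 1.18 and 1.02 for RSM19, and 1.65 and 1.975 against 1.35 and 1.40 for MRP2. These 3 were lower in asc1-M1X without overlap, with ∆TE of -0.31, -0.57 and -0.39, and none passed the threshold (edgeR, adjusted p = 0.142, 0.137 and 0.211). The MRPS35 values, given above, overlapped. Tested directly, the strain effect on total RNA differed between the 2 preparations in 0 SSU genes by edgeR and by DESeq2 (2 at an unadjusted p under 0.05; 1.26% of all genes), and it was lower after Ribo-Zero in 27 of 32 genes, with a median difference of -0.13 beside 0.02 over all genes. Ribo-Zero libraries were shallower, at 2082489 to 4382258 counted reads.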

How the data were processed

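The authors aligned uniquely mapping reads to the Sigma1278b genome with TopHat, left out the first 30 codons of each ORF and deposited unnormalized read counts per ORF, in 4 tables with 56 count libraries. The FP library of replicate 1 of the 6 main glucose strains pools reads of a re-prepared library. Deposited RPKM values, scaled counts and the authors' own fold changes and p-values were not used. The Ribo-Zero samples titled asc1-Null carry the description and strain code of asc1-M1X and were taken as asc1-M1X. Oligo(dT) cellulose served to select total RNA, with beads in its place for asc1-DE and its WT and Ribo-Zero where named, and the aligner version is not given in the sources used here.

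Counts were fitted with edgeR 4.0.16 in R 4.3.3 (quasi-likelihood test, TMM scaling, two-sided, Benjamini-Hochberg adjustment over all genes tested, threshold 0.05), in each comparison on the libraries compared, for FP, total RNA and the interaction of library type with strain (∆TE). Genes needed 128 reads over the FP and over the total RNA libraries. The 19 ORFs of the mitochondrial genome (0.0245% to 0.577% of reads) were left out. Levels are reads per gene over the TMM-scaled library total (RPM), and levels per kb use the R64 ORF length less 90 nt. WT in 2 media and the medium interaction were fitted jointly, so values there are scaled apart from those of the glucose fit. Scripts ran in Python 3.11.15 with pandas 2.3.3 and matplotlib 3.10.9.

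All 32 genes could be named. For genes with a called ∆TE in either null strain in glucose and for MRP2, values per library are given in the text or the plot by replicate for the main experiment and glycerol, as TE for asc1-DE and Ribo-Zero, and as FP and total RNA for the collection. Elsewhere called genes are named, up to 5 of the largest each way, beside a few more chosen after their values were seen. The members and lists were chosen with earlier results of these data known. FP and total RNA of one number come from one extract, which pairs them (correlation of their deviations 0.142 to 0.526 in 10 of 10 pairs), so the culture as a replicate block was an alternative for ∆TE. For FP and total RNA the block was the replicate number across strains, which nothing in the labels ties to a shared batch. The others were DESeq2 1.42.0, DESeq2 size factors, library size alone, no filter, one fit over all strains and leaving out each culture. On simulated counts for asc1-M1X against WT, 115 of 200 genes with a ∆TE of 0.5 and 195 of 200 with 1 were called.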

Additional observations from a re-analysis of the deposited data

Results flagged for a closer look

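The asc1-M1X effect on 15 SSU genes in FP and on 4 in total RNA differed between glycerol and glucose by the interaction test of edgeR (Benjamini-Hochberg adjusted p under 0.05), always lower in glycerol. The shares over all genes are given with the interaction above, and in total RNA the share of SSU genes called was below that of all genes. Both counts moved widely when 1 culture was left out. In FP the difference on the log2 scale was -1.64 for EHD3, -0.99 for MRPS17, -0.97 for MRP51, -0.87 for MRP1, -0.79 for KGD4, -0.78 for MRPS5 and -0.78 for NAM9. It was -0.70 for RSM24, -0.70 for RSM26, -0.67 for MRP4, -0.63 for PET123, -0.62 for RSM18, -0.60 for MRP21, -0.60 for MRPS18 and -0.57 for MRPS16. In total RNA it was -1.05 for EHD3, -0.76 for RSM19, -0.74 for MRPS8 and -0.54 for MRP51. The adjusted p was 6.99e-07 in edgeR for EHD3 in FP and 0.0485 for MRP51 in total RNA, the smallest and the largest of these 19. The media were separate experiments and cannot be told apart from them.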

How the results depend on the processing

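Counts of called SSU genes kept within 1.5 times in 365 of 484 recomputed counts and moved in 119, and of 3919 recomputed results of genes called at first, with MRP2 added, 3166 kept their direction and side of the threshold, 746 lost their call, 3 gained one (all MRP2) and 4 reversed, while calls gained by other genes enter the counts only. With the replicate block, TE calls went from 3 to 11 in asc1-M1X, 1 to 6 in asc1Δ, 0 to 2 in rpl23bΔ, 1 to 5 in rpp1aΔ, 5 to 9 in asc1-M1X against asc1-D109Y, 0 to 8 in glycerol, 0 to 2 in the medium interaction and 0 to 1 (MRPS5, rising) with Ribo-Zero. In FP and total RNA the block is the replicate number across strains. Mutant and WT of one number deviated together at r over 0.1 in 6 of 7 pairs each (0.068 to 0.357 in FP, 0.0134 to 0.632 in total RNA). The labels name no batch for them, and whether they shared more than a number was not tested. With this block total RNA calls went to 13 in asc1Δ (52.5% of all genes), 11 in rpp1aΔ (48.4%), 25 in glycerol (24.3%) and 9 in the interaction (18.1%). The collection experiment had no such fit because its WT columns repeat names of the main WT and were mapped to their group only, so the numbers in those names were not used for pairing.

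DESeq2 gave TE calls of 1 in asc1-M1X, 0 in asc1Δ, 1 against asc1-D109Y, 5 against rpl23bΔ and 6 against rpp1aΔ. It gave total RNA calls of 4 in asc1-M1X, 5 in asc1Δ, 3 in rpl23bΔ, 3 in rpp1aΔ, 0 in rps0bΔ, 1 against asc1-D109Y, 5 against rpl23bΔ, 3 against rpp1aΔ, 9 with Ribo-Zero and 9 in the interaction, and 4 FP calls in rpp1aΔ. DESeq2 size factors gave 5 TE calls in asc1-M1X. One fit over all strains gave TE calls of 2 in asc1Δ, 2 in rpl23bΔ, 2 in rpp1aΔ and 1 against asc1-D109Y, total RNA calls of 3 against asc1-D109Y and 0 in rps0bΔ, and 7 FP calls in rps0bΔ. Library size alone gave total RNA calls of 3 in asc1-M1X and 3 in asc1Δ, TE calls of 1 in rpl23bΔ, 2 in rpp1aΔ and 1 with Ribo-Zero, and 8 FP calls in the interaction. No filter gave TE calls of 2 in rpp1aΔ and 3 against asc1-D109Y and 7 total RNA calls in the interaction. The cause of these moves was not tested.

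Leaving out 1 culture gave FP, TE and total RNA calls of 13 to 19, 0 to 3 and 3 to 6 in asc1-M1X, 12 to 17, 0 and 3 to 4 in asc1Δ, 13 to 16, 0 to 2 and 2 to 4 against asc1-D109Y, 9 to 27, 2 to 15 and 1 to 13 against rpl23bΔ, and 15 to 28, 3 to 11 and 2 to 11 against rpp1aΔ. They were 4 to 8, 0 to 1 and 0 to 7 in rpl23bΔ, 2 to 9, 0 to 1 and 2 to 5 in rpp1aΔ, 2 to 10, 0 and 0 in rps0bΔ, and 0, 0 to 3 and 0 to 12 in rps16bΔ. They were 14 to 19, 0 and 4 to 11 with Ribo-Zero, 16 to 32, 0 and 1 to 30 in glycerol, 3 to 32, 0 and 1 to 25 in the interaction, and 32, 14 to 25 and 31 to 32 between media in WT. In asc1-D109Y, asc1-DE, asc1-M1X against asc1Δ and the comparison of RNA preparations they stayed at 0. MRP2 total RNA reversed in asc1-M1X, from -0.04 to 0.067 with library size alone, and without 1 culture it ran from -0.22 to 0.22, above zero without WT replicate 2 (0.22) or asc1-M1X replicate 1 (0.065). In asc1Δ it went from -0.14 to between -0.33 and 0.12, above zero without WT replicate 2. With 2 cultures per strain and 1713047 to 15322986 counted reads, ∆TE under 0.5 was often below what could be called. The simulation behind this covered asc1-M1X in glucose only. With the replicate block some smaller ∆TE were called, as for MRPS12 at -0.28 in asc1-M1X in glucose.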
